A study of Mus musculus with 3 samples.

Results

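The CCN genes and the factors of the YAP-TEAD pathway were followed in cultured mouse JB6 P+ cells, a skin line in which tumour promoters can induce transformation. The set holds 10 genes of the 24421 in the count table, taken by symbol. The 5 CCN genes are Ctgf (now Ccn2), Cyr61 (Ccn1), Nov (Ccn3), Wisp1 (Ccn4) and Wisp2 (Ccn5). The other 5 are Ankrd1, Yap1, Wwtr1, Tead1 and Amotl2. All 10 had at least 1 CPM (reads scaled to a common library size) in at least 1 library and entered the comparisons, as did 13100 genes in all.

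Total RNA was sequenced in 3 libraries, 1 per group. The control is labelled only as such. The TPA group received the phorbol ester TPA, a protein kinase C activator and classical skin tumour promoter, at 10 ng/mL. The CDDO+TPA group received 10 ng/mL TPA with 50 nM CDDO, a synthetic oleanane triterpenoid. Cells were treated every second day for 5 days in 1% serum. Whether the control shared that medium or received a vehicle is not stated in the labels. A library of CDDO without TPA was not analysed here, so an effect of CDDO by itself cannot be told apart from one that needs TPA.

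The libraries held 7813035 to 8190078 reads assigned to genes. With 1 library per group, no difference was tested against the spread between cultures, and every interval below covers counting error only. A gene is called higher or lower under a size rule: a log2 fold change of 1 or more in either direction, with a fold whose 95% counting interval leaves out 1. The column taken as CDDO+TPA names CDDO and not TPA; it was matched to the single sample whose labels name CDDO. Keratinocyte markers were sparse for a line labelled epithelial: 7 of 15 were measured, and Krt5, Krt1, Krt18 and Epcam had 0 reads in all libraries. The summed keratinocyte level over all 15 was 111, 152 and 190.4 CPM in control, TPA and CDDO+TPA. Of that sum, the integrin gene Itga6, also in the list of CCN receptors below, held 86.2, 91.4 and 158 CPM. Mesenchymal markers were abundant, with 14 of 16 measured. Their sum over all 16 was 4097 CPM in control, 2499.7 CPM with TPA and 2969 CPM with CDDO+TPA.

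YAP (Yap1) and its paralogue TAZ (Wwtr1) are transcriptional co-activators without a DNA-binding domain. They bind DNA through TEAD factors such as TEAD1 and are held in the cytoplasm when the Hippo kinases LATS1 and LATS2 phosphorylate them or when angiomotins such as AMOTL2 bind them. Ctgf, Cyr61 and Ankrd1 are the target genes most often used to read YAP activity, and AMOTL2 is both a target and an inhibitor. CCN proteins are secreted matricellular proteins that bind integrins and growth factors; they act in adhesion, wound repair and fibrosis, and in skin CTGF is a well-known product of fibroblasts.

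The TEAD recognition sequence is shown first because TEAD factors are the DNA-binding part of this pathway. The genes were chosen as members and known targets of the pathway, so the matches below describe them and test nothing. Promoter windows from RefSeq (build GRCm38.p6) covering the 250 bases before the start site were found for 5 members: Cyr61, Ankrd1, Yap1, Wwtr1 and Amotl2. Ctgf, Nov, Wisp1, Wisp2 and Tead1 had no entry. Each of the 5 genes had the letters GGAATG, or CATTCC on the other strand, in its window, against 12.6% of all 32851 windows of that length. Ankrd1 had 2 matches. The 30 bases around each match follow, 5′ to 3′ on the strand of the gene, with the match in capitals.
Cyr61, chr3:145650071-145650100, minus strand: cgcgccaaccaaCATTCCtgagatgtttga
Ankrd1, chr19:36120037-36120066, minus strand: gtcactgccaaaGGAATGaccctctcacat
Ankrd1, chr19:36119950-36119979, minus strand: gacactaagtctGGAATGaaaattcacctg
Yap1, chr9:8004720-8004749, minus strand: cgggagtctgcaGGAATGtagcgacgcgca
Wwtr1, chr3:57576029-57576058, minus strand: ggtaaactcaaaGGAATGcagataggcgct
Amotl2, chr9:102717727-102717756, plus strand: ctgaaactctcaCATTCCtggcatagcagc

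The match nearest a start site was that of Amotl2, 65 to 60 bases before it. In Cyr61 it lay 103 to 98 bases before the start, in Yap1 141 to 136, and in Wwtr1 136 to 131 from the outer of its 2 annotated starts. The matches of Ankrd1 lay 210 to 205 and 123 to 118 bases before the start. GENCODE M21 exons cover the whole Ankrd1 window, 136 bases of the Amotl2 window and 17 bases of the Yap1 window. The AP-1 sequence TGACTCA, or TGAGTCA on the other strand, through which phorbol esters are known to act, was in none of these windows and in 4.46% of all windows. The serum response element core, CArG, was also absent from them, against 1.47% of all windows. A match is a description of letters, and binding was not measured. The whole Cyr61 window is printed as the example because this gene had the highest level per length of the 10 members; it is chr3:145649986-145650235 on the minus strand, with the match in capitals.
Cyr61 window: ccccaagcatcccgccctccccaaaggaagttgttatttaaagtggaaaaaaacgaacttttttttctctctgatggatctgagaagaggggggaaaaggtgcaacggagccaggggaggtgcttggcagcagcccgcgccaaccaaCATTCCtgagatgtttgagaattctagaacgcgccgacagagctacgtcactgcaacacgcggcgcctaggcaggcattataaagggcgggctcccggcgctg

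The question of the first comparison, TPA with control, is how these genes stood in cells given the tumour promoter. Of the 10 members, 4 were lower and 0 higher; over all genes tested, 5.91% were lower and 9.57% higher. The balance over all genes turns with the filter: where a mean of at least 10 CPM was required, 476 genes were lower and 381 higher. Besides the members, 9882 genes met that filter. The 4 lower members were the CCN genes Wisp1, Ctgf and Wisp2 and the YAP inhibitor gene Amotl2. The filter on the mean removes Nov and Wisp2, so Wisp2 is not counted under it. Yap1, Wwtr1 and the target gene Ankrd1 differed little. The median log2 fold change of the 5 CCN genes was -1.21 and that of the other 5 members -0.05, beside 0 over all genes. In a bulk library, fewer cells of one kind and less RNA per cell cannot be told apart.

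The question of the second comparison, CDDO+TPA with TPA, is how they stood when CDDO was given with the tumour promoter. Here 3 members were higher and 0 lower, all 3 of them CCN genes (Ctgf, Nov and Wisp2), beside 7.87% of all genes higher and 7.78% lower. Wisp1 and Amotl2 were not called. The CCN genes had a median log2 fold change of 1.36, the other members one of -0.20 and all genes one of 0.01. Against control, the CDDO+TPA library had 1 member higher (Nov) and 1 lower (Wisp1), with 8.02% of all genes higher and 3.37% lower. These comparisons share libraries, so their values are given side by side and no agreement between them is counted.

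**Figure D1:**
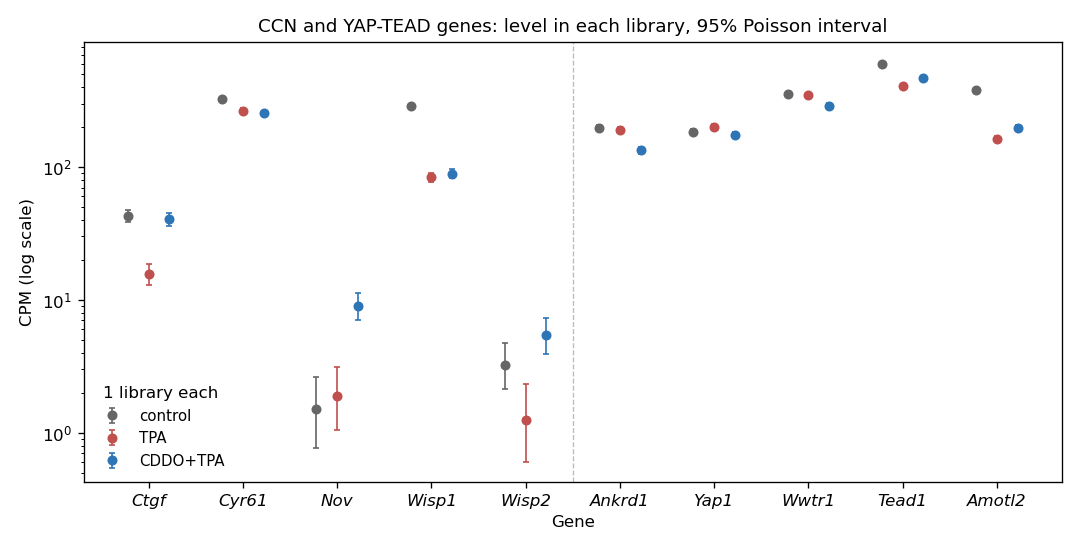
Level of each gene in CPM on a log axis in each of the 3 libraries; points are single libraries, bars are exact 95% Poisson intervals, and the dashed line separates the CCN genes from the others. Ctgf stands at 42.9, 15.6 and 40.4 CPM, whereas Wisp1 stands at 287, 83.7 and 88.9 CPM.

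Among the secreted CCN proteins, CTGF promotes matrix production and is a standard target of both YAP and TGF-beta signalling. In the order control, TPA, CDDO+TPA, which is kept below, Ctgf had 344, 124 and 319 reads, which is 42.9, 15.6 and 40.4 CPM. The TPA library was the low one, and the Poisson intervals of the other two overlapped. Ctgf was 2.76-fold lower (95% counting interval 2.24 to 3.41) with TPA than in control and 2.60-fold higher (2.10 to 3.22) in CDDO+TPA than in TPA. CDDO+TPA and control differed by 1.06-fold (0.909 to 1.24). Ctgf lies on chromosome 10, 24595442 to 24598682, plus strand, in mm10. GENCODE annotates Gm15270 on the other strand over 541 of its 2402 exonic bases, and the unstranded counts do not separate the 2 transcripts. Both calls of Ctgf are lost when cultures are assumed to vary with a coefficient of 0.4 and the interval is widened to match.

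Wisp1, or CCN4, is a WNT-inducible secreted protein of fibroblasts and bone. It had 2302, 667 and 702 reads, or 287, 83.7 and 88.9 CPM. Control alone was high, and the intervals of the 2 treated libraries overlapped. Wisp1 was 3.43-fold lower (3.15 to 3.75) in TPA and 3.23-fold lower (2.97 to 3.52) in CDDO+TPA than in control. The treated libraries differed from each other by 1.06-fold (0.954 to 1.18). It was the member with the largest log2 fold change between TPA and control, at -1.78. Wisp1 lies on chromosome 15, 66891393 to 66923199, plus strand.

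Wisp2, or CCN5, differs from the other CCN proteins in lacking the C-terminal cystine-knot domain. It was scarce, with 26, 10 and 43 reads (3.24, 1.26 and 5.45 CPM), lowest with TPA and highest with CDDO+TPA. The Poisson interval of control overlapped those of both treated libraries, which did not overlap each other. The fold in TPA against control was 2.58 lower, with a wide interval of 1.21 to 6.01, and the call is lost with the assumed coefficient of 0.4. CDDO+TPA was 4.34-fold higher (2.15 to 9.69) than TPA. Against control it was 1.68-fold higher (1.01 to 2.85), a log2 fold change of 0.71 that did not reach the size rule.

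Nov, or CCN3, is often described as a counterweight to CTGF in fibrosis and growth. It had 12, 15 and 71 reads, or 1.5, 1.88 and 9.0 CPM. Here CDDO+TPA was the high library and the intervals of control and TPA overlapped. The gene was 4.78-fold higher (2.71 to 8.98) in CDDO+TPA than in TPA and 6.01-fold higher (3.23 to 12.2) than in control. Between TPA and control the ratio was 1.26 (0.549 to 2.94), a difference not detectable at this depth. The remaining CCN gene, Wisp3, had 0, 3 and 2 reads and was not measured. For the count of 0 in control, the floor of 3 counts is 0.374 CPM and the upper end of the 95% Poisson interval is 0.46 CPM.

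Cyr61, an immediate-early gene whose product supports cell adhesion and migration, was the most abundant CCN gene. Its 2595, 2112 and 1993 reads gave 324, 265 and 253 CPM. Control was the highest library, and the treated libraries overlapped in their intervals. Cyr61 was 1.22-fold lower (1.15 to 1.29) in TPA than in control, below the size rule, and 1.05-fold lower (0.987 to 1.12) in CDDO+TPA than in TPA. It held 1.28, 1.04 and 0.983 reads per exonic base, the densest of the members. The column names carry a mark of duplicate removal, and its part in the Cyr61 levels was not tested.

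**Figure D2:**
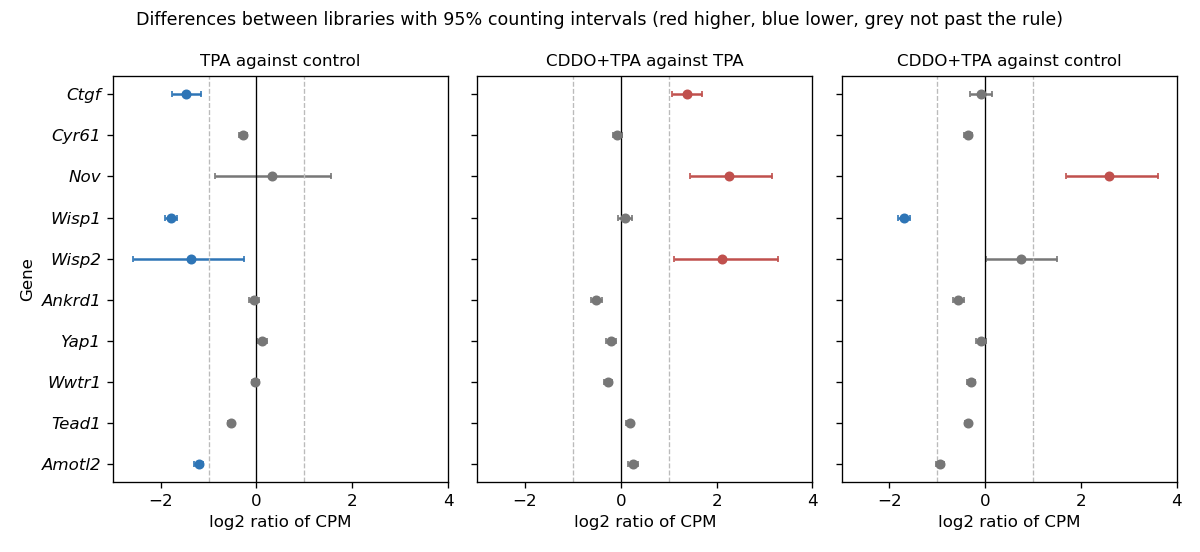
Log2 ratio of CPM between libraries for each gene, in 3 panels for the 3 comparisons; points are ratios without a prior count, bars are exact 95% counting intervals, and dashed lines mark a log2 ratio of 1 in size. Ctgf, Nov and Wisp2 are red (higher) in CDDO+TPA against TPA, while Wisp1 is blue (lower) in both comparisons with control.

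Genes were compared with each other as CPM per kilobase of exonic length (RPKM). On that scale the CCN genes summed to 237, 155 and 166. Cyr61 made up 67.3% of that sum in control, 84.1% with TPA and 75.0% with CDDO+TPA. The share of Wisp1 was 24.1%, 10.7% and 10.7%, so that the treated libraries were alike in it. Ctgf held 7.53%, 4.17% and 10.1%. Nov and Wisp2 were the smallest parts in each library, with 0.267%, 0.512% and 2.29% for Nov and 0.771%, 0.455% and 1.85% for Wisp2. Cyr61 exceeded Ctgf per length 8.93-fold (7.98 to 10.03) in control, 20.2-fold (16.8 to 24.4) with TPA and 7.40-fold (6.57 to 8.35) with CDDO+TPA.

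**Figure D3:**
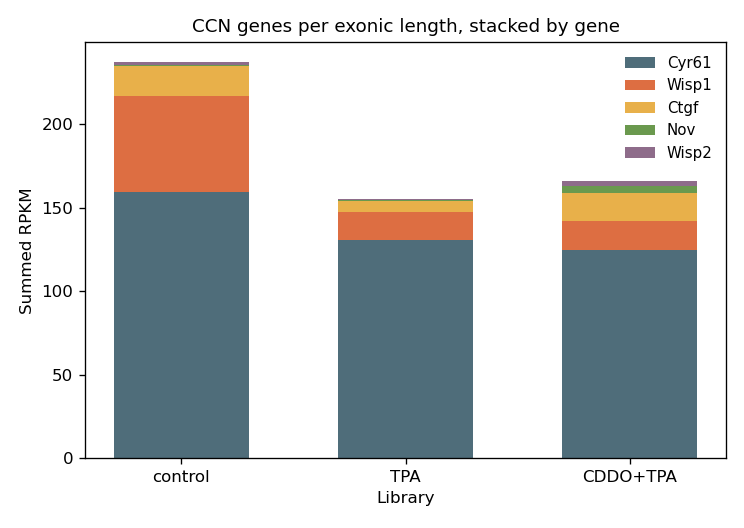
Level of the 5 CCN genes in RPKM, stacked by gene, for the 3 libraries; the bars start at 0 and carry no error because each is 1 library. The sum is 237 in control, 155 in TPA and 166 in CDDO+TPA, and the Wisp1 segment goes from 57.2 RPKM in control to 16.7 and 17.7.

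Of the 5 members outside the CCN family, Amotl2 had the largest log2 fold change between TPA and control, at -1.20. AMOTL2 is an angiomotin that binds YAP and TAZ and also activates LATS kinases. It had 3017, 1301 and 1543 reads, or 377, 163 and 196 CPM, with control above both treated libraries and no overlap among the 3 intervals. The gene was 2.31-fold lower (2.16 to 2.46) in TPA than in control and 1.20-fold higher (1.11 to 1.29) in CDDO+TPA than in TPA. CDDO+TPA remained 1.93-fold lower (1.81 to 2.05) than control, a log2 fold change of -0.94 just under the size rule. The call in TPA against control is lost with the assumed coefficient of 0.4. Amotl2 lies on chromosome 9, 102717804 to 102733417, plus strand.

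The co-activator genes were close to level. Yap1 had 1481, 1601 and 1380 reads, or 185, 201 and 175 CPM; TPA was highest, and the interval of control overlapped those of both treated libraries. Its ratio in TPA against control was 1.09 (1.01 to 1.17). GENCODE places Gm20416 on the other strand over 116 exonic bases of Yap1. Wwtr1 had 2845, 2777 and 2288 reads, or 355, 349 and 290 CPM, and CDDO+TPA was the low library, while control and TPA overlapped. Wwtr1 was 1.20-fold lower (1.14 to 1.27) in CDDO+TPA than in TPA, and TPA and control differed by 1.02-fold (0.966 to 1.07), in a direction that turned under total-count and upper-quartile scaling. Per length, Wwtr1 exceeded Yap1 in every library, 1.67-fold (1.57 to 1.78) in control, 1.51-fold (1.42 to 1.61) with TPA and 1.44-fold (1.35 to 1.55) with CDDO+TPA.

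Tead1, the DNA-binding partner, had 4768, 3262 and 3669 reads, or 595, 410 and 465 CPM. Control was high and TPA low, with no overlap of the 3 intervals. Tead1 was 1.45-fold lower (1.39 to 1.52) in TPA than in control and 1.14-fold higher (1.08 to 1.19) in CDDO+TPA than in TPA, both under the size rule. Its paralogue Tead2 had 79.2, 119 and 117 CPM, Tead3 had 59.2, 86.8 and 67.0 CPM, and Tead4 had 38.3, 35.0 and 37.3 CPM. Per length, the ratio of Tead1 to Tead2 was 1.63 (1.5 to 1.77) in control and 0.743 (0.691 to 0.80) with TPA, so that the order of the 2 factors was opposite in these libraries. With CDDO+TPA the ratio was 0.862 (0.801 to 0.927).

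Ankrd1, an ankyrin repeat protein of muscle and wounded tissue that is a common reporter of YAP activity, had 1579, 1517 and 1053 reads, or 197, 190.4 and 133 CPM. The intervals of control and TPA overlapped, and the direction of their difference turned under total-count and upper-quartile scaling. CDDO+TPA was low. The fold was 1.43 lower (1.32 to 1.55) in CDDO+TPA than in TPA and 1.48 lower (1.37 to 1.6) than in control, under the size rule. The reporter genes differed among themselves in CDDO+TPA against TPA: log2 fold changes were 1.36 for Ctgf, -0.07 for Cyr61 and -0.51 for Ankrd1. Because Ankrd1 is also a muscle gene, striated muscle markers were examined: 3 of 9 were measured. The sum over all 9 was 59.9, 73.9 and 83.5 CPM. The 3 measured were Tnnt2 (34.7, 43.4 and 31.4 CPM), Des (20.8, 23.5 and 47.5 CPM) and Acta1 (3.74, 5.77 and 3.55 CPM). Des was called 2.02-fold higher (1.69 to 2.43) in CDDO+TPA than in TPA. Myh7, Myod1 and Myog had 0 reads in all libraries. The part of the muscle markers in the Ankrd1 levels was not tested.

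The order of levels per length was led by Cyr61 in each library, with 160, 131 and 125 RPKM, followed by Ankrd1 with 112, 108 and 75.6 RPKM. Amotl2 ranked 3 in control with 89.8 RPKM, 6 with TPA (39.0) and 5 with CDDO+TPA (46.7). Wwtr1 stood at 74.2, 72.9 and 60.6 RPKM, Tead1 at 59.7, 41.1 and 46.7, and Yap1 at 44.3, 48.2 and 41.9. Ctgf ranked 8 in all 3 libraries, with 17.9, 6.48 and 16.8 RPKM, and Nov and Wisp2 were last. Neighbours not separated beyond counting error were Tead1 and Wisp1 in control, Tead1 and Amotl2 in both treated libraries, Nov and Wisp2 in both treated libraries, and Wisp1 and Ctgf in CDDO+TPA. In that last pair the ratio of Ctgf to Wisp1 was 0.95 (0.83 to 1.09), against 0.312 (0.278 to 0.35) in control and 0.389 (0.318 to 0.471) with TPA.

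Among the kinases and upstream regulators of the Hippo pathway, 1 of 25 measured genes was higher and 0 lower in TPA against control, beside 9.57% and 5.91% of all genes. The median log2 fold change was -0.11; the others ran from -0.60 for Frmd6 to 0.43 for Wtip. The exception was Dchs1, a giant protocadherin ligand of the Fat-Dachsous branch, at 2.50, 23.7 and 2.79 CPM. Dchs1 was 9.51-fold higher (5.98 to 15.9) in TPA than in control and 8.51-fold lower (5.46 to 13.9) in CDDO+TPA than in TPA. Set against TPA, the CDDO+TPA library had 0 genes of this list higher and 1 lower (Dchs1), beside 7.87% and 7.78% of all genes. The others ran from -0.51 for the kinase gene Lats1 to 0.46 for Nf2, whose product merlin acts upstream of LATS. Against control, 0 of 25 were called in either direction, beside 8.02% of all genes higher and 3.37% lower, with a median of 0.02.

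Of the other TEAD and Vestigial-like genes, 5 of 7 were measured. In TPA against control 0 were higher and 1 lower, beside 9.57% and 5.91% of all genes. The lower gene was Vgll3, which encodes a cofactor that competes with YAP for TEAD. Vgll3 had 193, 27.6 and 74.1 CPM. It was 6.98-fold lower (6.06 to 8.08) in TPA than in control, 2.68-fold higher (2.29 to 3.15) in CDDO+TPA than in TPA, and 2.60-fold lower (2.36 to 2.87) in CDDO+TPA than in control. With the assumed coefficient of 0.4, the call against control with TPA was kept and both calls of the CDDO+TPA library were lost. Vgll4 had 12.7, 14.8 and 13.3 CPM, and Vgll1 and Vgll2 had 0 reads.

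A list of 18 further YAP/TAZ target genes was mixed, and 16 were measured. In TPA against control, 2 were higher and 4 lower with a median of -0.19, beside 9.57% of all genes higher and 5.91% lower. Ccdc80, a secreted matrix protein, had 26.6, 2.39 and 13.6 CPM and was 11.1-fold lower (6.96 to 18.9); Rbms3, an RNA-binding protein gene, was 2.41-fold lower (1.95 to 3.00), and the stress gene Gadd45a was 2.19-fold lower (1.95 to 2.46). Foxf2, a forkhead factor of mesenchyme, went the other way with 72.9, 154 and 73.9 CPM, a 2.12-fold higher level (1.92 to 2.34). The remaining calls, named after their values were seen, were Fjx1 (54, 20 and 42 reads) and Tgfb2 (24, 56 and 18 reads). The 10 targets not called ran from -0.63 for Crim1 to 0.35 for Asap1. In CDDO+TPA against TPA, 2 were higher and 2 lower with a median of 0.10, beside 7.87% of all genes higher and 7.78% lower. Ccdc80 was 5.68-fold higher (3.47 to 9.81) and Foxf2 2.09-fold lower (1.89 to 2.31). With the assumed coefficient of 0.4, Ccdc80 was the only target still called in either comparison. The call of Fjx1 in CDDO+TPA against TPA was also lost under total-count and upper-quartile scaling, a prior count of 5 and an assumed coefficient of 0.2. In CDDO+TPA against control, 0 of 16 were called in either direction, beside 8.02% of all genes higher and 3.37% lower.

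Receptors reported for CCN proteins included 11 measured genes of 14. In TPA against control 2 were higher and 1 lower, with a median of -0.07, beside 9.57% of all genes higher and 5.91% lower. Itgb5, the integrin beta chain that pairs with alpha-v to bind CYR61 and CTGF, was 2.07-fold lower (1.91 to 2.24), at 242, 117 and 157 CPM. Notch1, to which CCN3 can bind, was 3.06-fold higher (2.52 to 3.75), and the growth factor receptor gene Fgfr2 was 2.35-fold higher (1.75 to 3.20). All 3 receptor calls were lost with the assumed coefficient of 0.4. That of Itgb5 was also lost under total-count scaling, at a log2 fold change of -0.99, and under upper-quartile scaling, at -0.98. In CDDO+TPA against TPA 0 of 11 were called, with a median of 0.25, beside 7.87% of all genes higher and 7.78% lower.

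**Figure D4:**
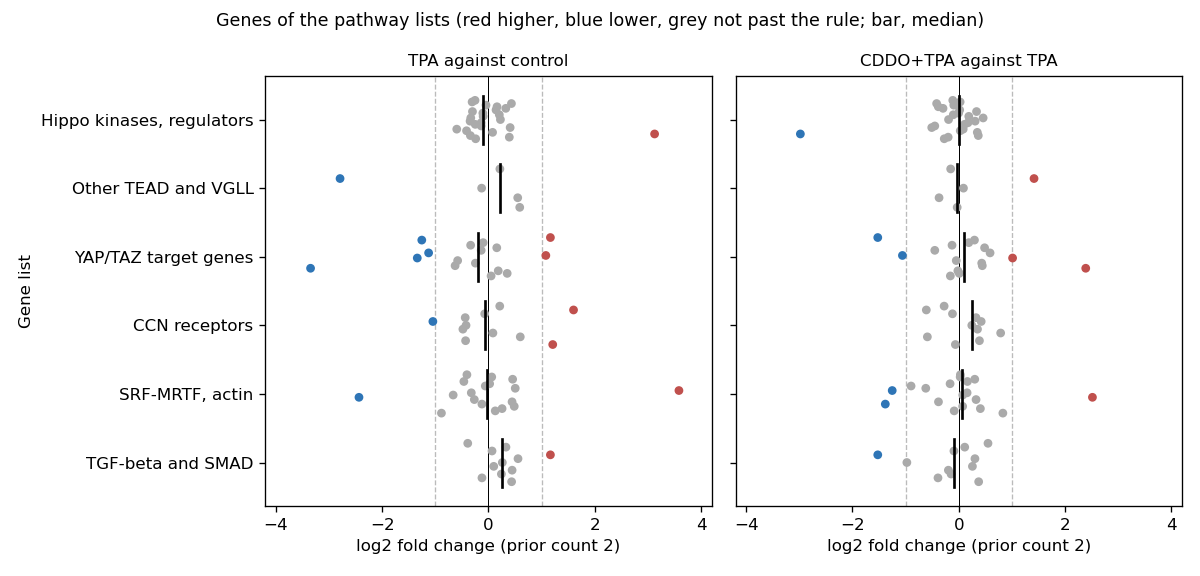
Log2 fold change (prior count of 2) of each measured gene in 6 pathway lists, with TPA against control on the left and CDDO+TPA against TPA on the right; each point is a gene, black bars are medians and dashed lines mark a log2 fold change of 1 in size. Most genes lie between the dashed lines, and Dchs1 (3.13 and -2.98), Vgll3 (-2.79 and 1.42) and Ccdc80 (-3.35 and 2.39) lie outside in both panels. So do Foxf2 (1.08 and -1.06), Fjx1 (-1.34 and 1.01), Tgfb2 (1.17 and -1.52), Myl9 (3.58 and -1.25) and Itga1 (-2.44 and 2.52). Both panels use the same TPA library, so their values are not independent.

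SRF and its MRTF co-activators control actin genes and can induce Ctgf, Cyr61 and Ankrd1. Of 18 measured genes in that list, 1 was higher and 1 lower in TPA against control, with a median of -0.02. Over all genes, 9.57% were higher and 5.91% lower. In CDDO+TPA against TPA, 1 gene of the list was higher and 2 lower, with a median of 0.05. The shares of all genes there were 7.87% higher and 7.78% lower. The calls, named after their values were seen, came from genes with few reads: Itga1 (47, 7 and 49), Myl9 (0, 22 and 8) and Fhl1 (21, 19 and 6). Those of Myl9 and Fhl1 in CDDO+TPA against TPA were lost with the assumed coefficient of 0.4, and that of Myl9 also with 0.2. TGF-beta induces Ctgf in many cells. Of 11 measured genes of the TGF-beta list, 1 was higher (Tgfb2) and 0 lower in TPA against control, beside 9.57% and 5.91% of all genes. In CDDO+TPA against TPA, 0 were higher and 1 lower (Tgfb2), beside 7.87% and 7.78% of all genes. Both calls were lost with the assumed coefficient of 0.4. The medians of this list were 0.26 and -0.09.

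Genes whose pattern was nearest were sought for 8 members, leaving out Nov and Wisp2 for their low levels, among 9882 genes with a mean of at least 10 CPM, by Euclidean distance over 2 log2 fold changes from the 3 libraries, those of the first and the second comparison. Likeness over so few points is a description only. Wisp1 had few neighbours, 2 genes within a distance of 0.25. These were Mid1, a ubiquitin ligase gene, with 30.5, 9.54 and 10.1 CPM, and Slc25a25, a mitochondrial carrier gene, with 155, 48.2 and 43.7 CPM. The next nearest was Fabp5, a fatty acid-binding protein gene, with 88.5, 28.5 and 36.0 CPM. Ctgf had 29 genes within that distance, the nearest being Txndc12 (71.1, 26.4 and 67.3 CPM), Lclat1 (129, 45.3 and 118 CPM) and Nnmt (33.8, 11.8 and 31.9 CPM). Amotl2 had 68, led by the YAP/TAZ list gene Rbms3 (37.2, 15.4 and 19.0 CPM), then St5 and the clock gene Arntl. For Ankrd1, Tead1, Cyr61, Wwtr1 and Yap1 the counts were 517, 878, 1400, 1612 and 1966 genes. The nearest to these were Sft2d1, Tapbp, Rprd2, Bmi1 and Aktip, respectively.

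Markers of other cell types also differed between these libraries. Of 14 measured mesenchymal markers, 2 were higher and 4 lower in TPA against control, beside 9.57% and 5.91% of all genes. In CDDO+TPA against TPA, 2 were higher and 2 lower, beside 7.87% and 7.78% of all genes. The collagen gene Col5a2 had 557, 27.7 and 82.5 CPM, whereas the receptor gene Pdgfra had 5.24, 34.9 and 76.9 CPM. Of 7 measured keratinocyte markers, 3 were higher and 0 lower in TPA against control, and 0 were higher and 2 lower in CDDO+TPA against TPA. The shares of all genes are those given for the mesenchymal markers. The integrin gene Itgb4 had 2.87, 23.2 and 3.29 CPM, whereas the marker Pkp3 had 3.37, 16.6 and 16.5 CPM. Among endothelial markers 3 of 7 were measured, and the sums over all 7 were 66.4, 303 and 218 CPM, mostly Vwf. Among leukocyte markers 2 of 8 were measured, and the sums over all 8 were 61.4, 86.4 and 105 CPM. The part of these markers in the levels of the 10 genes was not tested.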

How the data were processed

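RNA sequencing of 3 JB6 P+ libraries was deposited by the authors as raw whole-number read counts per gene symbol in a single table. Per the file headers, counting used featureCounts 1.5.3 with a UCSC mm10 annotation and primary alignments, with no strand option. The submitters' processing notes also name HISAT2, Picard and DESeq without versions. The header lists 7 alignment files and 3 columns are present; pooling of replicates is not stated in either source.

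From these counts, TMM factors of edgeR 4.0.16 (0.978, 1.02 and 1.00 for control, TPA and CDDO+TPA) gave CPM, and log2 fold changes used a prior count of 2, which understates those of genes with few reads. Folds are CPM ratios with exact conditional binomial 95% intervals, and levels have exact Poisson intervals; both describe counting error alone, as PCR reads without molecular identifiers need not be separate molecules. A level of 1 CPM or more in any library was required, which 13100 genes met. RPKM used the exonic length in the table. Scripts were tested on simulated data. No test against culture spread was possible, and none was made.

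The members and gene lists were chosen with earlier results of these data known. Of 7 pathway lists, 1 is not reported here. Named genes are all members, up to 4 called genes per list and comparison with the largest log2 fold change and at least 10 CPM in 1 of the libraries compared, all genes of lists under 8, and the 3 nearest in pattern per member. Genes outside this rule are marked, appear as ends of a range, or are cell type markers given for a marker sum or for 0 reads. Of the cell type markers that met the rule, only some are named. Promoter sequences come from RefSeq, GRCm38.p6, searched on both strands. Tried alternatives were other scalings, including DESeq2 1.42.0 size factors, prior counts of 0.5 and 5, filters, size rules, and intervals widened by an assumed coefficient of variation.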

Additional observations from a re-analysis of the deposited data

How the results depend on the processing

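The 30 log2 fold changes of the 10 genes, recomputed under 3 other scalings and prior counts of 0.5 and 5, all lay within their counting intervals, and no called value changed sign. For TPA against control, which was not called in either gene, Ankrd1 went from -0.05 to 0.01 under total-count and upper-quartile scaling, and Wwtr1 from -0.03 to 0.03 and 0.04; the widened intervals leave these values as they are by construction. Scaling moved the median of all genes by at most 0.06. With an interval widened by an assumed coefficient of variation of 0.4, 1 member was lower in TPA against control (Wisp1), and the 3 members higher in CDDO+TPA against TPA became 2 (Nov and Wisp2). All genes then numbered 580 higher and 230 lower for TPA against control, 385 and 502 when CDDO+TPA was set against TPA, and 410 and 144 when it was set against control. The 7 pathway lists, each gene counted once, then had 2 higher and 3 lower in place of 6 and 7, 3 and 1 in place of 6 and 5, and 0 and 0 in place of 4 and 2. Where a mean of at least 10 CPM was required, 9882 genes besides the members were left, and Nov and Wisp2 were removed. Then the members lower in TPA against control were Wisp1, Ctgf and Amotl2, and 1 member was higher in CDDO+TPA against TPA and 0 against control. All genes numbered 381 higher and 476 lower, 522 and 227, and 507 and 165. For TPA against control, lower genes outnumbered higher ones under this filter and under no other alternative run. At a log2 size of 1.5, 1 member was lower in TPA against control (Wisp1), 2 were higher in CDDO+TPA against TPA (Nov and Wisp2, without Ctgf), and all genes numbered 827 higher and 328 lower in TPA against control, 529 higher and 710 lower in CDDO+TPA against TPA, and 585 and 233 in CDDO+TPA against control. At a log2 size of 0.5, Tead1 (-0.54) joined the members lower in TPA against control. With that size, 1 member was lower in CDDO+TPA against TPA, and 2 were higher and 3 lower in CDDO+TPA against control. All genes then numbered 2281 and 2150, 2335 and 1971, and 1985 and 1422. Dividing by the longest GENCODE transcript, an alternative chosen after seeing the data, put Nov at rank 10 and Wisp2 at 9 in both treated libraries, and Yap1 at 5 and Tead1 at 4 with TPA. Coding length from RefSeq proteins was not run. No paired analysis was possible because each group is 1 library, and no library could be left out.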
